A study of Drosophila melanogaster with 9 samples.

Results

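Small nucleolar RNAs (snoRNAs) were examined in Drosophila melanogaster embryos that carried a mutation in Kah, which encodes a zinc-finger transcription factor. The genes were taken as every gene whose biotype is given as snoRNA in at least 1 of the deposited tables, which gave 222 of 14909 genes. RNA-seq was performed on total RNA of whole embryos collected 5 to 16 h after egg laying at 25°C, with 3 replicates in each of 3 groups. The study's methods state that the replicates of each genotype came from 1 collection of embryos. Both mutant alleles were made by CRISPR/Cas9. In kah-deltaATG (called KahΔATG in the study) Kah has lost its start codon with much of exon 2, and in kah-deltaznf (KahΔZnF) it has lost the zinc-finger coding sequence while the reading frame is kept. Both were compared with w1118, a white-eyed laboratory strain that served as the wild type. Cells of every tissue were pooled in these samples, so fewer cells of a type and less RNA per cell cannot be told apart.

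snoRNAs are short RNAs of the nucleolus that guide the chemical modification of ribosomal RNA. Box C/D snoRNAs pair with their target and direct 2′-O-methylation by fibrillarin (Fib), whereas box H/ACA snoRNAs direct the conversion of uridine to pseudouridine by dyskerin, called Nop60B in flies. U3 is a box C/D snoRNA that acts in the cutting of the precursor of 18S rRNA rather than in methylation, and scaRNAs guide the same modifications on spliceosomal RNAs in Cajal bodies. In flies nearly all snoRNAs are cut from introns of other genes, many of which encode ribosomal proteins, and some hosts (the Uhg genes) appear to code for no protein. The name of a gene gives its class and its predicted target, so that snoRNA:Me28S-A1322 is a box C/D guide for methylation of an adenosine of 28S rRNA and snoRNA:Psi18S-531 a box H/ACA guide for a pseudouridine of 18S rRNA.

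The tables listed 206 snoRNA genes for the comparison of kah-deltaATG with w1118 and 213 for that of kah-deltaznf with w1118, and 197 were in both. The 25 genes listed in a single table had at most 4 reads in any library. Values are reads on a gene divided by the size factor of the library, so that a value of 1 is close to 1 read. Each library held between 17990440 and 20036769 reads on genes, and all listed snoRNA genes together took between 62.8 and 70.1 RPM (reads scaled to the library total) of them. The kind of RNA selection before sequencing and the strand setting of the read counting are not given in the sources used here. The 4 listed replication-dependent histone genes had 11 to 47 reads per library, and all listed snRNA genes together 7.48 to 26.6 RPM. How well snoRNAs themselves were captured was not tested. The 8 embryonic marker genes such as twi, eve and Mhc were all detected, and their summed value was between 42100 and 68500 in mutant libraries, against 76700 to 110000 in w1118. Most of that sum was the muscle myosin gene Mhc, with means of 55539 in kah-deltaATG and 87482 in w1118, and of 42465 in kah-deltaznf and 88288 in w1118, whereas twi had 223 in kah-deltaATG and 229 in w1118, and 218 in kah-deltaznf and 230.3 in w1118. The segmentation gene ftz went the other way in kah-deltaznf, with a mean of 80.9, against 47.3 in w1118. Values of the 5 listed ovary or adult markers summed to at most 74.0, and those of 3 larval markers to at most 3.02, in any library. Kah itself stood at 1700.2, 1569 and 1619.9 in kah-deltaATG, against 380.0, 357 and 369 in w1118, and at 774, 683 and 773 in kah-deltaznf, against 377, 362 and 375 in w1118. These counts cover the whole gene and therefore do not check the deletions. The share of mitochondrial reads was low in kah-deltaznf replicate 1 and w1118 replicates 2 and 3, at 8.67% to 11.2%, against 15.3% to 16.6% in the other 6 libraries.

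Most snoRNA genes were near the floor of the measurement. A value of 10 or more in at least 3 of the 6 libraries of a table was reached by 40 of 206 snoRNA genes (19.4%) for kah-deltaATG and by 37 of 213 (17.4%) for kah-deltaznf. Among all genes 75.0% and 75.1% reached this limit, and among protein-coding genes 83.0% and 83.2%. Genes of other short RNAs were also poorly covered, with 16.7% and 26.3% of snRNA genes and 8.64% and 10.4% of tRNA genes at the limit. Of the snoRNA genes, 35 reached it in both tables and 42 in either. The median snoRNA gene had a highest library value of 4.92 in the kah-deltaATG table and 4.64 in the kah-deltaznf table, and 84 and 86 genes had fewer than 10 reads over all 6 libraries. A count of 10 reads carries a 95% exact Poisson interval of 4.80 to 18.4, which covers counting error only.

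The limit fell among genes of similar coverage. In the kah-deltaATG table the 3 genes just inside it were snoRNA:Psi28S-3385a, snoRNA:Or-CD8 and snoRNA:Psi28S-3091a, which were placed by the third highest of their library values, at 10.5, 10.75 and 10.75, and the 3 just outside were snoRNA:Psi28S-3571, snoRNA:Psi28S-1175b and snoRNA:Psi28S-3436b at 8.86, 9.84 and 9.84. In the kah-deltaznf table snoRNA:Or-aca5, snoRNA:gcl-a and snoRNA:Psi18S-301 were just inside at 10.6, 10.6 and 10.7, and snoRNA:Psi28S-3385a, snoRNA:Psi28S-1175a and snoRNA:Psi28S-1175b just outside at 9.56, 9.99 and 9.99. snoRNA:Psi28S-3385a, a box H/ACA guide within kra, thus stood on different sides of the limit in the tables, with means of 9.44 in kah-deltaATG and 9.21 in w1118, and of 8.52 in kah-deltaznf and 9.27 in w1118. In kah-deltaATG libraries 26 snoRNA genes were at the limit in all 3 replicates, against 21 in w1118, and in kah-deltaznf libraries 23, against 21 in w1118. A gene that reached the limit in all libraries of a single group entered the tests through the group in which it was high. This applied to 12 of the 40 genes for kah-deltaATG through the mutant and 7 through w1118, and to 8 of the 37 for kah-deltaznf through the mutant and 6 through w1118.

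Detection differed between the classes of snoRNA. Of 103 box H/ACA guides 27 reached the limit in at least 1 table (26.2%), whereas 3 of 69 box C/D guides did (4.35%). The classes also differ in length, with a median of 140 bases for H/ACA guides and 80 bases for C/D guides. Among genes of 130 bases or more 36 of 130 were detected (27.7%), among those from 100 up to 130 bases 2 of 20 (10%), and among those under 100 bases 4 of 72 (5.56%). Length and class overlap almost fully here, since 99 of the 103 H/ACA guides and 2 of the 69 C/D guides are at least 130 bases long, so their parts cannot be told apart. All 3 U3 genes, 2 of 6 orphan C/D genes, 2 of 3 orphan H/ACA genes and 1 of 9 scaRNA genes were detected, orphan meaning that no target is named. Detection also differed by the gene that contains the snoRNA. Of 61 snoRNA genes within 26 ribosomal protein genes 18 were detected (29.5%), of 33 within 7 Uhg genes 1 was detected (3.03%), of 117 within other genes 17 (14.5%), and of 11 that lie in no other gene 6 (54.5%). Their median lengths were 138, 80, 136 and 151 bases in that order. The low share within Uhg genes therefore cannot be told apart from that of short genes.

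**Figure D1:**
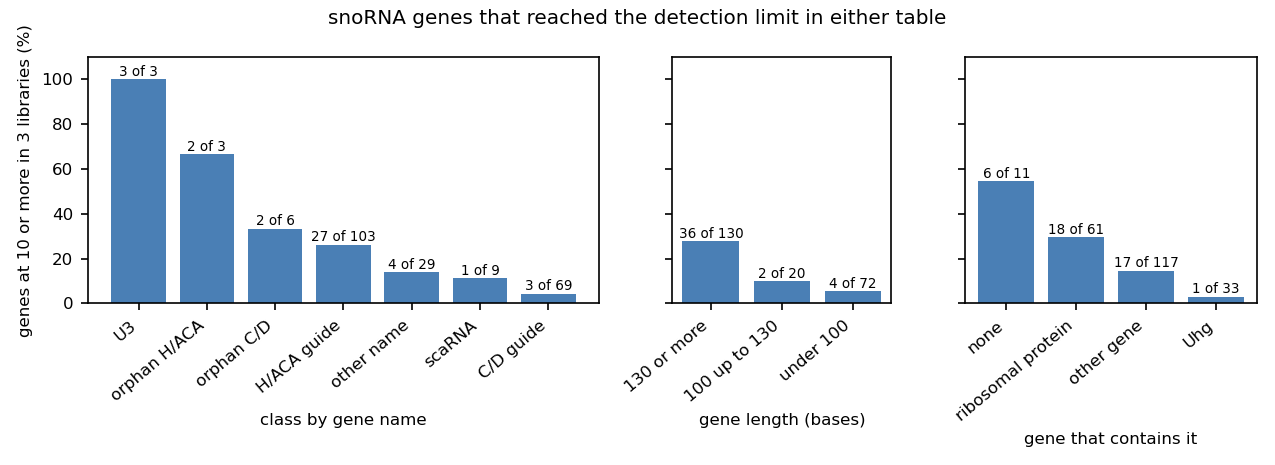
Share of snoRNA genes (y axis, %) with a value of 10 or more in at least 3 of 6 libraries in either table, by class from the gene name, by gene length in bases and by the gene that contains them, with the number of genes above each bar. Detection was 26.2% for box H/ACA guides and 4.35% for box C/D guides, and 27.7% for genes of 130 bases or more against 5.56% for those under 100 bases.

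The snoRNA gene with the highest mean was snoRNA:Psi18S-531, a box H/ACA guide of 152 bases within the noncoding gene CR42491 on the X chromosome. It stood at 149, 122 and 119 in kah-deltaATG, against 131, 117 and 153 in w1118, and at 106, 118 and 141 in kah-deltaznf, against 129.8, 119 and 156 in w1118. These groups overlapped, and the gene alone supplied between 8.13% and 12% of the summed snoRNA value of a library. The 12 snoRNA genes with the highest means, which together held 35.1% to 41.9% of that sum, comprised 5 more H/ACA guides, each in a ribosomal protein gene (snoRNA:Psi28S-1232, snoRNA:Psi18S-920, snoRNA:Psi28S-2179, snoRNA:Psi28S-291 and snoRNA:Psi28S-1192d), the C/D guides snoRNA:Me28S-A1322 and snoRNA:Me28S-A2113, the scaRNA scaRNA:MeU5-C46, and snoRNA:185, snoRNA:U3:54Ab and snoRNA:Or-CD1. Per length, snoRNA:Me28S-A1322 (73 bases) and snoRNA:Psi18S-531 were close, at mean values per kilobase of 882 and 845, and snoRNA:185 (55 bases) followed at 624. The place of snoRNA:185 came from the mutant libraries, since its value per kilobase was 737 in kah-deltaATG and 146 in w1118, and 988 in kah-deltaznf and 147 in w1118.

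The comparisons asked which snoRNA genes had another level in embryos with a mutated Kah. In kah-deltaATG 6 of the 40 snoRNA genes tested were called changed, 5 higher and 1 lower, where a call needed an adjusted p of 0.05 or less in limma over all genes and a change of 0.59 or more in either direction on the log2 scale. This stands beside 25.3% of all 10972 genes tested, 14.7% higher and 10.6% lower. Of these 6 calls, 5 were of genes at the limit in all libraries of a single group, the higher one (4 the mutant, 1 w1118). In kah-deltaznf 7 of 37 were called, 5 higher and 2 lower, beside 49.3% of all 10957 genes, 23.8% higher and 25.5% lower. All 7 calls were of genes at the limit in all libraries of a single group, the higher one (5 the mutant, 2 w1118). Such genes were tested through the group in which they were high, so these counts describe the genes named and support no shift of snoRNA genes as a whole. With 10 or more required in all 6 libraries, 1 of 14 was called in kah-deltaATG and 1 of 15 in kah-deltaznf, the last not among the 7. The shares of all genes called under that filter are not given here, so these counts have no background beside them. Among genes with a mean value under 50, 6 of 38 snoRNA genes were called in kah-deltaATG, beside 27.8% of all such genes, and 7 of 35 in kah-deltaznf, beside 48.0%. At an unadjusted p under 0.05 the counts were 8 of 40 and 9 of 37, beside 6244 of 10972 and 7962 of 10957 over all genes. Errors of log2 fold changes are given as SE throughout. The median log2 fold change of the tested snoRNA genes was 0.10 in kah-deltaATG and 0.23 in kah-deltaznf, beside medians of -0.02 and 0.00 over all genes tested.

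Genes below the limit can be described by their means. Over 122 snoRNA genes with at least 10 reads in the kah-deltaATG table, 66 had a higher mean in the mutant and 56 a lower one, and the mutant and w1118 libraries did not overlap for 26 (14 above, 12 below, 21.3% in all), beside 53.2% of all genes with as many reads, 27.0% above and 26.2% below. Over 127 in the kah-deltaznf table, 68 had a higher and 59 a lower mean, and 25 did not overlap (16 above, 9 below, 19.7%), beside 67.5% of all genes, 33.4% above and 34.1% below. The summed value of all listed snoRNA genes averaged 1273 ± 61.8 in kah-deltaATG and 1228 ± 74.6 in w1118, and 1373 ± 59.0 in kah-deltaznf and 1239 ± 71.4 in w1118 (SD, n = 3 each). The kah-deltaATG sums overlapped those of w1118. The kah-deltaznf sums, between 1306 and 1413, lay above those of w1118, between 1161 and 1302, but as RPM they were 68.6 ± 0.211 in kah-deltaznf and 67.2 ± 3.09 in w1118 and overlapped.

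**Figure D2:**
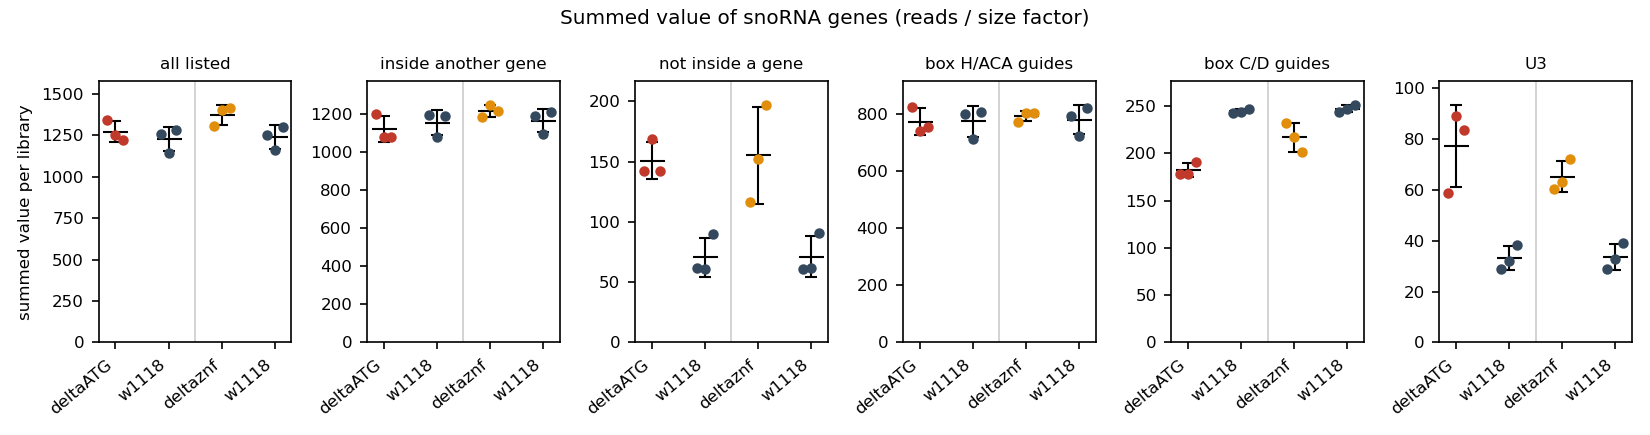
Summed value of snoRNA genes (y axis, reads divided by size factor) in each library for all listed genes, those inside and not inside another gene, box H/ACA guides, box C/D guides and U3. Points are libraries, bars the mean and SD (n = 3), and each mutant stands left of w1118 from its own table. Genes that lie in no other gene summed to 151 in kah-deltaATG and 155 in kah-deltaznf on average, 70.7 and 71.3 in w1118 of the same tables, while H/ACA guides were between 711 and 825 in all libraries.

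Box C/D guides had lower sums in the mutants, although no single C/D guide was called. The class summed to 178, 179 and 191 in kah-deltaATG, against 242, 244 and 247 in w1118. In kah-deltaznf it summed to 232, 217 and 200.97, against 244, 247 and 251 in w1118. The mutant libraries were all below the w1118 libraries, and kah-deltaznf replicate 1, whose mitochondrial share was low like that of w1118 replicates 2 and 3, was nearest to them. However, w1118 replicate 1, with a mitochondrial share of 16.3%, was at 242 and 244, close to the other w1118 libraries. Whether the mitochondrial share bears on these sums was not tested. Of the C/D guides with at least 10 reads 19 of 25 had a lower mean in kah-deltaATG and 19 of 26 in kah-deltaznf, and these counts share the w1118 libraries. Of all genes with as many reads 47.7% and 48.9% had a higher mean.

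Much of the class sum is snoRNA:Me28S-A1322, a guide for methylation of 28S rRNA within an intron of Ef1alpha48D, a translation elongation factor gene. Its values were 57.8, 48.4 and 69.4 in kah-deltaATG, against 71.1, 80.6 and 80.7 in w1118. In kah-deltaznf they were 57.4, 56.9 and 57.4, against 70.5, 81.9 and 81.9 in w1118. The groups did not overlap in either table, and the log2 fold changes were -0.41 ± 0.18 (SE, limma adjusted p = 0.0862) and -0.44 ± 0.17 (limma adjusted p = 0.0344), both under the size limit. Its host differed by -0.42 ± 0.07 in kah-deltaATG (limma adjusted p = 0.0013) and -0.16 ± 0.10 in kah-deltaznf (limma adjusted p = 0.17). Without this gene the C/D guides summed to 124 ± 5.48 in kah-deltaATG and 167 ± 4.14 in w1118, which did not overlap, and to 159.5 ± 15.7 in kah-deltaznf and 169 ± 4.34 in w1118, which did (SD, n = 3 each).

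snoRNA:Me28S-A2113, a C/D guide within RpL30, did not share this direction. It stood at 29.6, 26.8 and 30.8 in kah-deltaznf, against 25.0, 18.3 and 19.0 in w1118, a log2 difference of 0.48 ± 0.25 (limma adjusted p = 0.109). In kah-deltaATG it differed from w1118 by 0.05 ± 0.30 on the log2 scale. The remaining detected C/D guide, snoRNA:Me28S-U1688 within Idgf4, averaged 11.1 in kah-deltaATG and 15.9 in w1118, and 12.4 in kah-deltaznf and 16.0 in w1118, with overlapping libraries.

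The sums of box H/ACA guides overlapped between mutants and w1118. They averaged 772 ± 46.4 in kah-deltaATG and 773 ± 53.8 in w1118, and 792 ± 17.2 in kah-deltaznf and 779.6 ± 50.3 in w1118 (SD, n = 3 each). In kah-deltaATG 1 of 26 tested was called, beside 25.3% of all genes, and in kah-deltaznf 4 of 24, 2 higher and 2 lower, beside 49.3%. The 5 most abundant guides in ribosomal protein genes, snoRNA:Psi28S-1232 (RpL17), snoRNA:Psi18S-920 (RpL10Ab), snoRNA:Psi28S-2179 (RpL22), snoRNA:Psi28S-291 (RpL3) and snoRNA:Psi28S-1192d (RpS5a), overlapped w1118 in each table. The log2 fold changes of snoRNA:Psi18S-920 and snoRNA:Psi28S-1192d, -0.36 and 0.26, were the ends of their range in kah-deltaATG, and those of snoRNA:Psi28S-291 and snoRNA:Psi28S-1192d, -0.57 and 0.34, in kah-deltaznf.

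The guide called lower in each mutant was snoRNA:Psi28S-612, an H/ACA guide of 145 bases. It had 10.5, 4.30 and 8.04 in kah-deltaATG, against 36.5, 24.7 and 29.5 in w1118. In kah-deltaznf it had 12.4, 7.51 and 11.7, against 36.2, 25.1 and 29.97 in w1118. Every mutant library was below every w1118 library, with 22 reads in kah-deltaATG, 31 in kah-deltaznf and 95 in w1118 over 3 libraries each. Its log2 fold change was -1.91 ± 0.36 in kah-deltaATG (limma adjusted p = 0.00192) and -1.46 ± 0.31 in kah-deltaznf (limma adjusted p = 0.0015).

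A further 3 H/ACA guides were called in kah-deltaznf only, which does not show that the mutants differ in them. snoRNA:Psi28S-2996, within RpL5 on chromosome 2L (22535458 to 22535593, BDGP6), had 22.0, 24.7 and 24.5 in kah-deltaznf, against 10.2, 9.64 and 17.0 in w1118, with a log2 change of 0.94 ± 0.31 (limma adjusted p = 0.0189). Its values in kah-deltaATG, 23.1, 10.8 and 19.1, overlapped the w1118 values of 10.3, 9.48 and 16.7. snoRNA:Psi28S-2442a, within kra on chromosome 3R (5598638 to 5598777), had 20.1, 23.6 and 12.8 in kah-deltaznf, against 9.27, 10.6 and 9.99 in w1118, with a log2 change of 0.82 ± 0.33 (limma adjusted p = 0.0471). In kah-deltaATG its values of 11.6, 16.1 and 15.1 were also above the w1118 values of 9.36, 10.4 and 9.84, with a log2 difference of 0.48 ± 0.30. kra encodes a regulator of translation, and 8 snoRNA genes lie in its introns.

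snoRNA:Psi28S-2566, within CG3902 on chromosome 3L (18896189 to 18896456), was the other guide called lower in kah-deltaznf. It had 7.65, 13.9 and 9.57 there, against 16.7, 20.2 and 25.0 in w1118, with a log2 change of -0.95 ± 0.33 (limma adjusted p = 0.026). In kah-deltaATG its values of 13.7, 15.1 and 7.04 were also all below the w1118 values of 16.8, 19.9 and 24.6, with a log2 difference of -0.78 ± 0.35 (limma adjusted p = 0.0903). In the direct test between the mutants none of these 3 guides was called, with log2 differences of 0.46 ± 0.34, 0.34 ± 0.32 and -0.16 ± 0.36 for kah-deltaznf over kah-deltaATG in the order named. These calls rest on 30 to 69 reads per group, and each was lost with DESeq2 and when single libraries were left out.

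The U3 genes had higher sums in each mutant. The 3 copies summed to 58.9, 89.3 and 83.5 in kah-deltaATG, against 29.0, 32.2 and 38.4 in w1118. In kah-deltaznf they summed to 60.3, 63.3 and 72.3, against 28.8, 32.8 and 39.0 in w1118. Each mutant library was above each w1118 library. These genes are copies of the same RNA, and how reads that match several copies were counted is not stated, so the split among them is uncertain. snoRNA:U3:54Aa (2R, 17143521 to 17143693, minus strand) and snoRNA:U3:54Ab (2R, 17145654 to 17145826, plus strand) are neighbours, and snoRNA:U3:9B (10348170 to 10348337) is on the X chromosome.

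By copy, the pattern differed. snoRNA:U3:54Aa had 11.6, 30.1 and 20.1 in kah-deltaATG, against 7.49, 7.59 and 4.92 in w1118, with a log2 change of 1.42 ± 0.40 (limma adjusted p = 0.0158). It had 26.8, 39.7 and 43.6 in kah-deltaznf, against 7.42, 7.71 and 5.00 in w1118, with a log2 change of 2.28 ± 0.32 (limma adjusted p = 9.71e-05). This copy was therefore above w1118 in all mutant libraries. snoRNA:U3:54Ab had 32.6, 37.6 and 40.2 in kah-deltaATG, against 15.0, 19.9 and 28.5 in w1118, with a log2 change of 0.81 ± 0.27 (limma adjusted p = 0.0334), but 25.8, 8.58 and 18.1 in kah-deltaznf, against 14.8, 20.2 and 29.0 in w1118, a log2 difference of -0.35 ± 0.41 (limma adjusted p = 0.47). The call of this copy in kah-deltaATG was lost with DESeq2, in the fit of 9 libraries and without any 1 of the kah-deltaATG replicates or w1118 replicates 1 or 2. That of snoRNA:U3:54Aa in kah-deltaATG was lost without kah-deltaATG replicate 2 or 3 and with the mitochondrial split of the libraries as a term (log2 change 1.13). snoRNA:U3:9B had 14.7, 21.5 and 23.1 in kah-deltaATG, against 6.55, 4.74 and 4.92 in w1118, with a log2 change of 1.69 ± 0.34 (limma adjusted p = 0.00282). In kah-deltaznf it was at 7.65, 15.0 and 10.6, against 6.49, 4.82 and 5.00 in w1118, all above w1118 but under the limit for a test.

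The largest fold changes in kah-deltaATG and in kah-deltaznf were those of snoRNA:Or-CD1 and snoRNA:185. snoRNA:Or-CD1 is an orphan C/D gene of 106 bases on chromosome 2R (22197269 to 22197374, minus strand). Its values were 26.3, 23.7 and 18.1 in kah-deltaATG, against 5.62, 2.84 and 0.984 in w1118, and 31.6, 45.1 and 62.7 in kah-deltaznf, against 5.56, 2.89 and 0.999 in w1118. No mutant library overlapped w1118, where the gene had 10 reads in all over 3 libraries. Its log2 fold change was 2.66 ± 0.48 in kah-deltaATG (limma adjusted p = 0.00153) and 3.62 ± 0.47 in kah-deltaznf (limma adjusted p = 5.17e-05), on the log2(value + 1) scale, which understates changes of genes this low.

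snoRNA:Or-CD1 lies in an intron of Swim, which encodes a secreted Wingless-interacting protein, and the host went the other way. Swim stood at 1883, 2485 and 2457 in kah-deltaATG, against 3364, 4296 and 4748 in w1118. In kah-deltaznf it was at 1339.9, 1342 and 1272, against 3333, 4366 and 4821 in w1118. Its log2 fold changes were -0.86 ± 0.14 in kah-deltaATG (limma adjusted p = 8.98e-04) and -1.65 ± 0.12 in kah-deltaznf (limma adjusted p = 1.12e-06). The snoRNA minus its host was thus 3.52 ± 0.70 in kah-deltaATG and 5.27 ± 0.72 in kah-deltaznf.

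snoRNA:185 is a gene of 55 bases on the minus strand of chromosome 2R (19727098 to 19727152) that lies in no other gene and whose name gives no class. It had 51.5, 40.9 and 29.2 in kah-deltaATG, against 6.55, 4.74 and 12.8 in w1118, with a log2 change of 2.26 ± 0.38 (limma adjusted p = 0.00105). In kah-deltaznf it had 29.6, 52.6 and 80.8, against 6.49, 4.82 and 12.99 in w1118, with a log2 change of 2.59 ± 0.43 (limma adjusted p = 2.86e-04). The groups did not overlap. The calls of snoRNA:185, snoRNA:Psi28S-612 and snoRNA:Or-CD1 were made in each mutant under each of the 16 alternatives in which these genes were tested. The filter that required the limit in all libraries of a table left these genes out. Each was tested through the group in which it was high, and the alternatives do not check that entry.

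**Figure D3:**
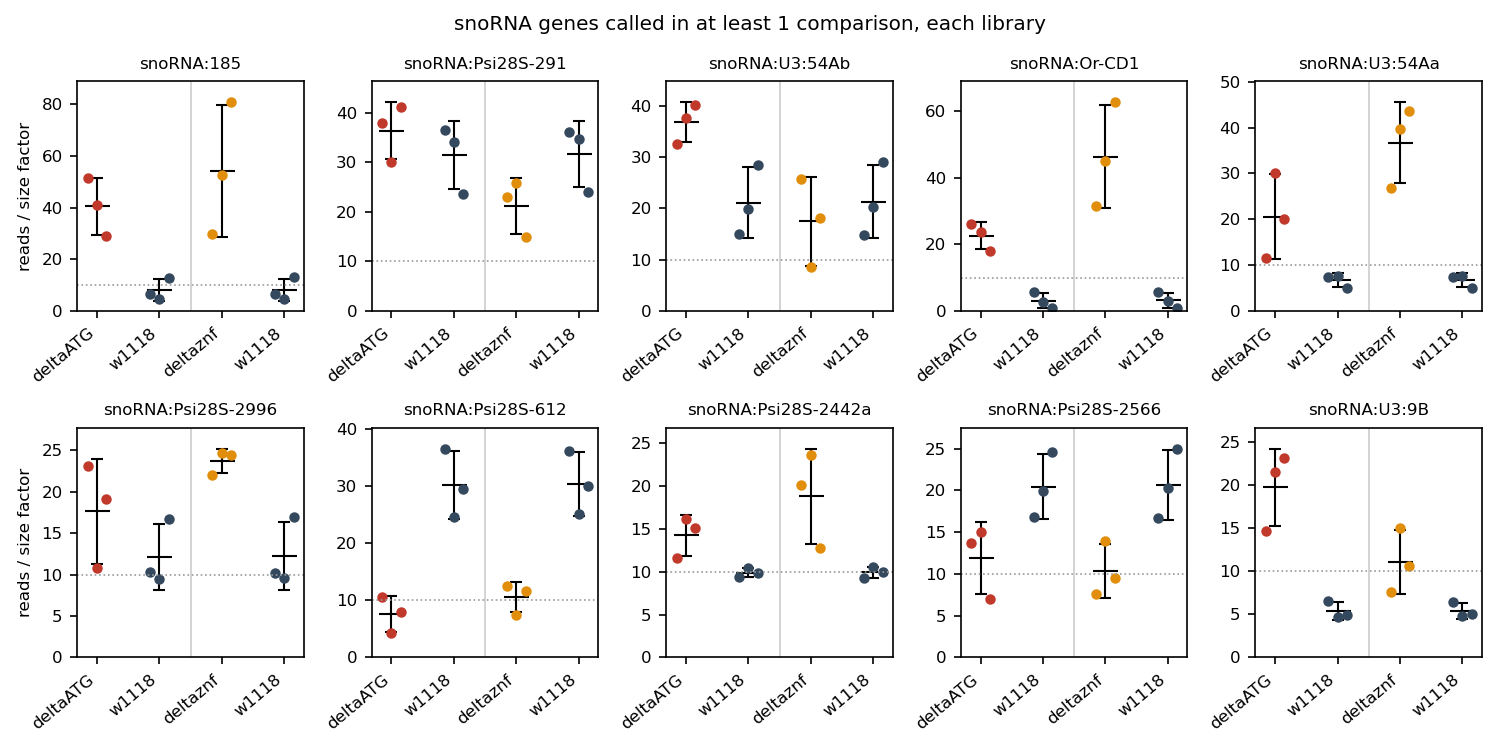
Value of each library (y axis, reads divided by size factor) for the 10 snoRNA genes called in at least 1 comparison. Points are libraries, bars the mean and SD (n = 3), each mutant stands left of w1118 from its own table, and the dotted line is the limit of 10. snoRNA:185 and snoRNA:Or-CD1 were above w1118 and snoRNA:Psi28S-612 below it in all mutant libraries, whereas snoRNA:U3:54Ab was above w1118 in kah-deltaATG only.

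snoRNA:185 and the 3 U3 genes belong to the 11 snoRNA genes that lie in no other gene. These 11 genes summed to 142, 169 and 142 in kah-deltaATG, against 61.8, 60.7 and 89.5 in w1118, and to 117, 152 and 197 in kah-deltaznf, against 61.2, 61.7 and 90.9 in w1118. The mutant libraries were above w1118 in each table, by 1.11 and 1.12 on the log2 scale. snoRNA genes inside other genes summed to 1122 ± 68.0 in kah-deltaATG and 1157 ± 65.3 in w1118, and to 1218 ± 30.02 in kah-deltaznf and 1167 ± 59.6 in w1118 (SD, n = 3 each), with overlap. Of the 11 genes, 4 of 6 tested were called higher in kah-deltaATG, beside 14.7% of all genes, and 2 of 5 in kah-deltaznf, beside 23.8%. Of these calls 3 of the 4 and both of the others were of genes at the limit in all mutant libraries and not in all w1118 libraries, so that the counts support nothing further. The other detected ones, snoRNA:Psi28S-1153 and snoRNA:Psi18S-301, overlapped w1118 in each table. The snRNA genes also had higher sums, at 490.2 ± 24.8 in kah-deltaATG and 149.5 ± 16.1 in w1118. In kah-deltaznf their sum was 376 ± 98.2, against 150.1 ± 13.5 in w1118. The rise was mostly U12 snRNA (snRNA:U12:73B), with means of 389 in kah-deltaATG and 56.8 in w1118, and of 289 in kah-deltaznf and 57.1 in w1118. snRNA:7SK went the other way in kah-deltaznf, with a mean of 16.6, against 55.4 in w1118. Of 5 snRNA genes tested in kah-deltaznf 2 were called higher and 1 lower, beside 23.8% and 25.5% of all genes. Whether library make-up has a part in the difference of the genes without a host was not tested.

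The remaining 211 snoRNA genes lie in 93 host genes, of which 177 members are in protein-coding and 34 in long noncoding genes. The fold change of a snoRNA gene was set beside that of its host. Over 34 pairs in 24 hosts in kah-deltaATG Pearson's r was -0.23 and Spearman's rho 0.03, and over 32 pairs in 23 hosts in kah-deltaznf they were -0.34 and 0.16. These values are across genes that share libraries and often hosts, and are given as a description. The host was far more abundant than the snoRNA, by a median ratio of deposited values of 1180 in the kah-deltaATG table and 1030 in the kah-deltaznf table, and reads of unspliced host RNA over a snoRNA cannot be told apart from snoRNA reads in these tables.

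**Figure D4:**
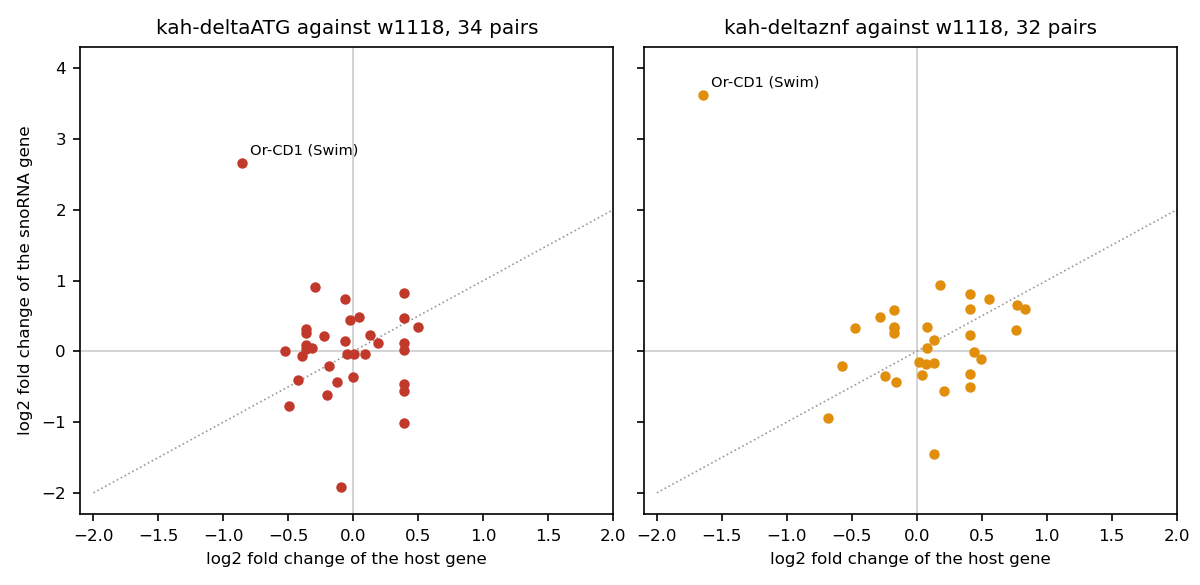
Log2 fold change against w1118 of each detected snoRNA gene (y axis) and of the gene that contains it (x axis) for kah-deltaATG (34 pairs) and kah-deltaznf (32 pairs). Each point is a snoRNA gene, and the dotted line marks equal change. snoRNA:Or-CD1, the labelled point, rose by 2.66 in kah-deltaATG and 3.62 in kah-deltaznf while its host Swim fell.

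Uhg5 is a noncoding host of 10 C/D genes, and it fell in each mutant. It stood at 79.9, 75.3 and 102 in kah-deltaATG, against 966, 730.1 and 766 in w1118, and at 229, 310.1 and 319 in kah-deltaznf, against 957, 742 and 778 in w1118. Its log2 fold change was -3.25 ± 0.15 in kah-deltaATG (limma adjusted p = 8.08e-07) and -1.53 ± 0.15 in kah-deltaznf (limma adjusted p = 6.76e-06). None of its snoRNA genes reached the limit. Summed, they had 9.46, 4.30 and 11.1 in kah-deltaATG, against 15.0, 22.8 and 24.6 in w1118, from 24 and 65 reads over the 8 genes listed. In kah-deltaznf the 10 genes summed to 16.3, 12.9 and 14.9, against 16.7, 23.1 and 25.0 in w1118, from 43 and 67 reads. Host and snoRNA sums were lower than in w1118 in all mutant libraries, with a log2 difference of -1.29 in kah-deltaATG and -0.51 in kah-deltaznf for the snoRNA sum. Members with most reads were snoRNA:Me28S-G2703a, snoRNA:Me28S-C3227b and snoRNA:Or-CD4.

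The other Uhg hosts called were higher. Uhg8 rose in each mutant, with log2 fold changes of 0.66 ± 0.17 (limma adjusted p = 0.00923) in kah-deltaATG and 1.12 ± 0.19 (limma adjusted p = 3.44e-04) in kah-deltaznf. Uhg3 and Uhg4 rose in kah-deltaznf by 0.99 ± 0.26 and 0.83 ± 0.23, where replicate 1, the library with few mitochondrial reads, was lower than the others (148 against 319 and 316 for Uhg3). Of the 4 snoRNA genes of Uhg8, the 2 listed for kah-deltaATG had 6 reads there and 13 in w1118. All 4 were listed for kah-deltaznf, with 29 reads there and 13 in w1118.

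Other hosts with several snoRNA genes gave no common direction. Within Hrb98DE the snoRNA sum averaged 39.2 ± 4.92 in kah-deltaATG and 27.45 ± 3.58 in w1118 (SD, n = 3 each), without overlap. In kah-deltaznf it averaged 37.5 ± 7.65, against 27.7 ± 3.76 in w1118, and overlapped. Hrb98DE itself was higher, by 0.50 ± 0.06 in kah-deltaATG and 0.77 ± 0.08 in kah-deltaznf on the log2 scale. Within dom the sum was lower, at 18.4 ± 4.12 in kah-deltaATG and 23.85 ± 2.285 in w1118, without overlap. In kah-deltaznf the dom sum overlapped, at 22.8 ± 5.36, against 24.3 ± 2.47 in w1118. dom itself was higher by 0.38 ± 0.06 in kah-deltaATG and 0.65 ± 0.09 in kah-deltaznf. Within kra the sum overlapped in kah-deltaATG, at 85.8 ± 4.77, against 80.2 ± 2.83 in w1118. In kah-deltaznf it did not, at 98.9 ± 6.63, against 80.8 ± 1.82 in w1118. Among single genes with at least 10 reads, 53.2% did not overlap in kah-deltaATG and 67.5% in kah-deltaznf. Arpc2, which encodes a subunit of the actin-nucleating Arp2/3 complex, holds 17 H/ACA genes of the snoRNA:Psi18S-525 and snoRNA:Psi18S-640 families, of which 13 were listed in each table. They summed to 22.1, 18.3 and 21.1 in kah-deltaATG, against 5.62, 6.64 and 4.92 in w1118, while Arpc2 itself differed by 0.04 ± 0.06 on the log2 scale. In kah-deltaznf they summed to 7.65, 16.1 and 27.6, against 5.57, 7.71 and 5.99 in w1118, which overlapped. These members are repeated copies, so their reads count as a family. In RpS5a, which holds 14 H/ACA genes, the snoRNA sum averaged 106 ± 19.3 in kah-deltaATG and 89.7 ± 20.1 in w1118 and overlapped, while RpS5a differed by -0.37 ± 0.06 on the log2 scale (limma adjusted p = 0.00134), under the size limit.

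Within CG10576, named after its values were seen, 5 snoRNA genes summed to 15.8, 12.9 and 22.1 in kah-deltaATG, against 30.9, 25.6 and 26.6 in w1118. In kah-deltaznf they summed to 13.4, 19.3 and 22.3, against 30.6, 26.0 and 27.0 in w1118. The sums were below w1118 in every mutant library, whereas the host differed by 0.31 ± 0.08 and 0.39 ± 0.09 on the log2 scale in the other direction. Of the 26 ribosomal protein hosts 0 were called by limma in kah-deltaATG, beside 25.3% of all genes. An unadjusted p under 0.05 was reached by 15 of them in kah-deltaATG, beside 6244 of the 10972 genes tested. Only 4 of the 26 had a positive log2 fold change there, with a median of -0.17, beside -0.02 over all genes. In kah-deltaznf 1 was called, beside 49.3% of all genes, and 7 had an unadjusted p under 0.05, beside 7962 of 10957 genes. There 14 were positive and the median was 0.04, beside 0.00 over all genes.

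**Figure D5:**
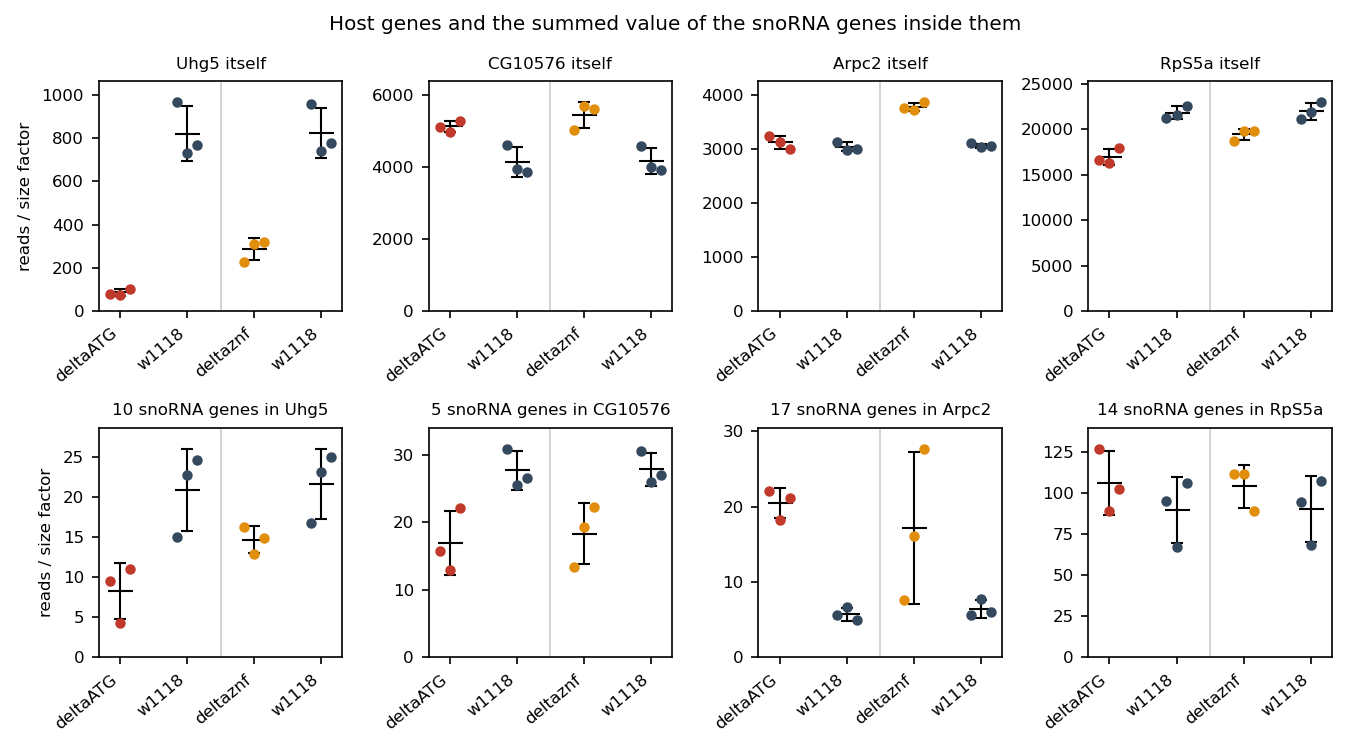
Value of 4 host genes (upper row) and the summed value of the snoRNA genes inside each (lower row) in each library (y axes, reads divided by size factor). Points are libraries, bars the mean and SD (n = 3), and each mutant stands left of w1118 from its own table. Uhg5 and its snoRNA genes were both lower in the mutants, whereas the snoRNA genes of CG10576 were lower and their host was not.

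The mutants differed from each other in few snoRNA genes. In a fit of all 9 libraries 2 of 45 snoRNA genes tested were called between kah-deltaznf and kah-deltaATG, beside 18.3% of 11115 genes (5.46% higher, 12.8% lower, and 22.8% of those with a mean under 50), and both were lower in kah-deltaznf. snoRNA:U3:54Ab differed by -1.16 ± 0.37 on the log2 scale (limma adjusted p = 0.0204), from the values given above. snoRNA:Psi28S-291, an H/ACA guide of 220 bases within RpL3 (3R, 11223571 to 11223790), had 23.0, 25.7 and 14.9 in kah-deltaznf, against 37.9, 30.1 and 41.2 in kah-deltaATG, in tables scaled separately, and differed by -0.78 ± 0.27 (limma adjusted p = 0.0311). Neither mutant was called against w1118 for it. For snoRNA:185 and snoRNA:Or-CD1 the difference between the mutants was 0.33 ± 0.40 (limma adjusted p = 0.516) and 0.96 ± 0.42 (limma adjusted p = 0.0786), kah-deltaznf being the higher.

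Genes of proteins that work with snoRNAs were described from a fixed list. Fib, the methyltransferase of C/D particles, had log2 fold changes of 0.19 ± 0.12 in kah-deltaATG (limma adjusted p = 0.206) and 0.76 ± 0.10 in kah-deltaznf (limma adjusted p = 5.23e-05). Nop60B, the pseudouridine synthase of H/ACA particles, had 0.11 ± 0.06 and 0.29 ± 0.07, neither called. Of 32 listed genes for snoRNP proteins, assembly factors, U3 and processome proteins and nucleolar proteins 25 were tested. In kah-deltaATG 4 were called higher and 0 lower, beside 14.7% and 10.6% of all genes, with a median log2 fold change of 0.11. In kah-deltaznf 11 were called higher and 0 lower, beside 23.8% and 25.5% of all genes, with a median of 0.56. Nopp140, a nucleolar phosphoprotein that accompanies snoRNPs, rose by 0.84 ± 0.06 in kah-deltaATG and 1.31 ± 0.08 in kah-deltaznf, and the helicase genes pont and rept, which act in snoRNP assembly, rose by 1.13 ± 0.09 and 1.07 ± 0.10 in kah-deltaznf. Of the 4 core C/D protein genes only Fib passed the size limit in kah-deltaznf, and none of the 4 core H/ACA protein genes did.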

How the data were processed

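Per the labels and the study's methods, HISAT2 (2.0.5), featureCounts (1.5.0-p3) and DESeq2 (1.20.0) were applied by the authors to read pairs on the BDGP6 assembly. The deposited signal of a gene is its reads divided by a size factor of the library, in 1 table per mutant. Dividing by the value of 1 read, 0.927 to 1.08, gave whole reads within 0.01 for 100% of values above 0, and the 14306 genes shared by the tables had identical w1118 reads. The authors' fold changes and p-values in the tables were not used, and 0 columns of sample values were left out.

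Groups and replicates were taken from the sample labels. Each mutant was compared with w1118 within its table by limma (3.58.1, R 4.3.3) with a mean trend on log2(value + 1), over genes at 10 or more in 3 of 6 libraries, with Benjamini-Hochberg adjustment over all of them. The limits, adjusted p of 0.05 and log2 fold change of 0.59, are those of the study. The mutants were compared on recovered reads of shared genes, scaled together. A sum over members has no test. A host is a gene of another biotype on the same strand that spans the snoRNA gene in the table coordinates. A later annotation of BDGP6 gave the same coordinates for 198 of 201 snoRNA genes found in it. On simulated counts for kah-deltaATG against w1118 (10972 genes, 200 changed) limma called 97.0% of changed and 2 unchanged genes. Every simulated gene had the same dispersion, so this checks that the fit ran and does not measure error rates in these libraries.

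Named genes are the snoRNA genes called in a mutant, the 12 with the highest means, the 3 on each side of the limit, their hosts, Kah, Fib and Nop60B. Others were named after their values were seen. Members and lists were chosen with earlier results of these data known. Alternatives were DESeq2 (1.42.0) and edgeR's quasi-likelihood test (4.0.16) on recovered reads, TMM scaling, other filters and pseudocounts, a replicate block, a fit of 9 libraries and leaving out each replicate. Each replicate pair differed by more than sampling noise. Replicates of each genotype came from 1 collection of embryos per the methods, so p-values measure only the spread between these samples, which may be technical. Python 3.11.15 and matplotlib 3.10.9 made the plots. No sequences were read, and 1 host gene is not reported here. The other data types of the study were not analysed here.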

Additional observations from a re-analysis of the deposited data

Results flagged for a closer look

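The difference between the mutants passed its own test for 2 snoRNA genes. snoRNA:U3:54Ab was lower in kah-deltaznf than in kah-deltaATG, with a log2 difference of -1.16 (limma adjusted p = 0.0204), and the call was lost without kah-deltaATG replicate 2 or 3 or kah-deltaznf replicate 2. snoRNA:Psi28S-291 was lower by -0.78 (as a log2 difference of kah-deltaznf minus kah-deltaATG, limma adjusted p = 0.0311), and the call was lost without kah-deltaATG replicate 1 or 3 or kah-deltaznf replicate 3. Groups of 3 libraries were too small for a check of single outlying samples.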

How the results depend on the processing

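The count of detected snoRNA genes depends on the limit by construction. It was 40 in the kah-deltaATG table and became 68 at 5 in 3 libraries, 13 at 20 in 3 libraries and 14 at 10 in all 6 libraries. It was 37 in the kah-deltaznf table and became 66, 16 and 15 under the same limits. The 6 calls in kah-deltaATG became 15 without a filter and 1 of 14 tested with 10 in all 6 libraries. The 7 calls in kah-deltaznf became 4 with DESeq2 (3 higher, 1 lower), 12 without a filter and 1 of 15 tested with 10 in all 6 libraries, which was not among the 7. edgeR called 6 and 7. A term for the mitochondrial split of the libraries, added after seeing the data, gave 5 and 8 calls. Leaving out each replicate gave 4 to 7 calls in kah-deltaATG, 4 to 7 in kah-deltaznf (4 without w1118 replicate 2) and 0 to 4 between the mutants (1 without kah-deltaATG replicate 1 or kah-deltaznf replicate 3, 0 without kah-deltaATG replicate 3 and 4 without w1118 replicate 1, against 2 with all libraries). As a share of all reads the log2 difference of the summed snoRNA abundance was -0.0322 in kah-deltaATG and 0.0308 in kah-deltaznf, against 0.05 and 0.15 by size factors. Without a replicate it ran from 0.00 to 0.08 and from 0.10 to 0.19. The median log2 fold change of the tested snoRNA genes ran from 0.04 to 0.20 in kah-deltaATG and from 0.02 to 0.33 in kah-deltaznf with a replicate left out. Same-numbered samples had correlations of deviations of 0.251, 0.0916 and 0.115 for kah-deltaATG and -0.259, -0.0968 and -0.0983 for kah-deltaznf. Samples with different numbers ran from -0.215 to 0.115 for kah-deltaATG and from -0.132 to 0.205 for kah-deltaznf. With 3 samples in a group these values cannot decide whether the numbers pair the samples. The fit with a replicate block called 6 in each mutant. The shares of all genes called under these settings are not given here, so the counts describe only how the snoRNA calls held. No result changed its direction past the threshold. Of 759 alternative values for single named genes, 713 kept a call with its direction or, where uncalled, stayed uncalled and near the main value. Such an uncalled value could change sign, as for snoRNA:Psi28S-2179 in kah-deltaATG, which ran from -0.56 to 0.12. Of the rest, 33 lost a call and 12 gained it. The uncalled value of scaRNA:MeU5-C46 in kah-deltaATG moved to 0.11 with the mitochondrial term, against 0.44. With that term snoRNA:U3:54Ab in kah-deltaATG was at 1.36, against 0.81. The calls of snoRNA:Psi28S-2442a (lost in 8 of 16 alternatives), snoRNA:Psi28S-2566 (5 of 16) and snoRNA:Psi28S-2996 (4 of 16) in kah-deltaznf and of snoRNA:U3:54Ab (7 of 17) in kah-deltaATG were the least stable of those named, and snoRNA:U3:54Aa in kah-deltaATG lost its call in 3 of 16. The causes were not tested. How large a change could be detected at the low counts of most snoRNA genes was not measured.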
